A study of Mus musculus with 7 samples.

Results

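Transcripts of major histocompatibility complex (MHC) class I presentation were followed in microglia sorted from wild-type (WT) neuronal grafts and in microglia of the surrounding cortex. The group comprised 10 genes of the 55341 gene names in the deposited table, picked by their known roles. These were the heavy chains H2-K1 and H2-D1, the light chain B2m, the peptide transporter subunits Tap1 and Tap2, the loading factor Tapbp, the transcriptional regulator Nlrc5 and the inducible proteasome subunits Psmb8, Psmb9 and Psmb10. All 10 had enough counts to be tested, among 15257 genes tested in all.

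Class I molecules display short peptides from a cell's own proteins to CD8 T cells and natural killer cells. The immunoproteasome, in which Psmb8, Psmb9 and Psmb10 replace the constitutive catalytic subunits, cuts proteins into peptides, Tap1 and Tap2 carry these into the endoplasmic reticulum, and tapasin (Tapbp) helps load them onto a heavy chain paired with β2-microglobulin (B2m). Interferons induce most of these genes, Nlrc5 acts at class I gene promoters, and microglia, the resident macrophages of the brain, can express the whole pathway.

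All samples came from female 5xFAD mice on the C57BL/6 strain, labelled as 14 weeks old, whose human transgenes with familial Alzheimer's disease mutations are driven by the neuronal Thy1 promoter. Embryonic WT cortical cells had been injected into the cortex 4 weeks earlier. CD11b+CD45low cells were sorted from the excised graft (inside graft, 3 libraries) and from small pieces of nearby cortex of grafted 5xFAD animals (outside graft, 4 libraries), so that the transgenes and the surgery were common to both groups and no ungrafted or non-transgenic library served as a control. RNA was amplified before sequencing, and the labels do not say whether libraries of a group came from separate mice, so the P values measure the spread between these libraries, part of which may be technical.

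Counts per library ran from 23241114 to 25882122 inside the graft and from 18644807 to 24599193 outside it. Summed over 8 microglial markers, led by Cx3cr1, levels were 23540 to 27675 CPM (counts scaled to a common library total by the trimmed mean of M values) inside the graft and 28319 to 31587 CPM outside it, without overlap, and none of the 8 was at 0 in any library. The quality weights that limma gave each library in the test used here were lowest in outside graft 1 (0.448) and highest in outside graft 4 (1.76). In bulk RNA, fewer cells of one type cannot be told apart from less RNA per cell.

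Promoter sequence is shown for the genes whose start regions share letters, because members of the pathway are known to be regulated together. RefSeq start windows on GRCm38.p6 matched 8 of the 10 genes, and there was no entry for Tap2 and Nlrc5. The stretches below cover positions -180 to -1 before the annotated start, written 5′ to 3′ on the gene's own strand, with capitals for GGGNTTCCC (letters of a kappa B site), AANTGAAA (letters found in interferon response elements) and TGACG (the core of a cyclic AMP response element, which is part of the class I X box). Each was searched on both strands, and these motifs were chosen after the windows had been read. H2-K1 had a second RefSeq start 14 bases downstream, which is not printed.
H2-K1, chr17:34000348-34000527, minus strand: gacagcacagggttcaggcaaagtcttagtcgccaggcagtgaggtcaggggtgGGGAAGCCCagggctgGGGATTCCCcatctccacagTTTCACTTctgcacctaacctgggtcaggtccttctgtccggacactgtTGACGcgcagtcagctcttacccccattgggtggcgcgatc
H2-D1, chr17:35262914-35263093, plus strand: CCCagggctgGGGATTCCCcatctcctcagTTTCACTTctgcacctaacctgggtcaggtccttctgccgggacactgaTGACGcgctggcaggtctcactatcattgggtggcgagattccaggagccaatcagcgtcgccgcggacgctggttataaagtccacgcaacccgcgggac
B2m, chr2:122147507-122147686, plus strand: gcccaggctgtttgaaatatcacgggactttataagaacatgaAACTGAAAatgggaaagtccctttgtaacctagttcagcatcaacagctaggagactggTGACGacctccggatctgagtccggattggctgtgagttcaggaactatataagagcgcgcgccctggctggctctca
Tap1, chr17:34187376-34187555, plus strand: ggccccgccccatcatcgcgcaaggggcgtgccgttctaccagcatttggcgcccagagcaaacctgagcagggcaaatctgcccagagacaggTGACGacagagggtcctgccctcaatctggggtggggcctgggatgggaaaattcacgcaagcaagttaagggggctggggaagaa

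The heavy chain stretches shared these 3 motifs in the same order, with identical runs of up to 47 bases between the windows of H2-K1 and H2-D1. Across all 32817 windows of 300 bases, GGGNTTCCC was found on either strand in 1.83%, and among the 8 genes it was found in H2-K1 and H2-D1, with 2 copies in each window, of which the first begins before the stretch printed for H2-D1. AANTGAAA was found in 6.58% of all windows and in those of H2-K1, H2-D1 and B2m. The shorter TGACG was found in 20.8% of all windows and in those of H2-K1, H2-D1, B2m, Tap1 and Psmb9. Tap1 and Psmb9 are transcribed in opposite directions with 225 bases between their start sites, so both genes hold the same copy of TGACG. The windows of Tapbp, Psmb8 and Psmb10 held none of these 3 motifs. The longer core of the interferon-stimulated response element was found in B2m, where it overlaps AANTGAAA, and in 3.43% of all windows, and TTCNNNGAA, a gamma-activated sequence, was found in Psmb8 and in 8.29%. A match is a description of the sequence and not a measured binding site.

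The genes lay on 3 chromosomes, and 7 of the 10 were on chromosome 17 (GRCm38, GENCODE M21). Tap2 (34203527 to 34216321), Psmb8 (34197721 to 34201454), Tap1 (34187553 to 34197225) and Psmb9 (34181987 to 34187764) adjoin one another there, with Tapbp at 33915899 to 33929292, H2-K1 at 33996017 to 34000347 and H2-D1 at 35262730 to 35267499. B2m lies on chromosome 2 (122147686 to 122153083), and Nlrc5 (94434356 to 94527272) and Psmb10 (105935735 to 105938444) lie on chromosome 8. Counts were made over annotated exons without regard to strand. Tap1 and Psmb9 share 212 exon bases on opposite strands, and Psmb8 shares 498 with Gm20496. Tapbp shares 1053 of its 3628 exon bases with Zbtb22 and Gm19412, and Tap2 shares 698 of 3781 with Gm20496 and Gm15821. A read over such bases could have come from either gene. The standard settings named in the paper leave it unassigned, which lowers the counts of these genes while their exon lengths stay whole.

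Levels are first compared between genes per kilobase of exon, as CPM per kb averaged over the 7 libraries. The length is that of all annotated exons of a gene merged. It can exceed the transcript in use, so levels compared between genes depend on the annotation. B2m was the most abundant, at 4531 ± 1551 (SD, n = 7), which ranked 8 among the 15257 genes tested. H2-D1 followed at 664 ± 310 and H2-K1 at 417 ± 173. Tapbp, at 166 ± 19.2, was by far the most abundant of the transport and loading genes.

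Below it, in CPM per kb, came Psmb10 (63.3 ± 11.5), Psmb8 (51.9 ± 12.6), Tap2 (43.9 ± 3.88), Psmb9 (29.8 ± 7.83) and Tap1 (24.2 ± 6.87). Nlrc5 was lowest, at 6.01 ± 3.32, and ranked 6345. Each gene exceeded the next in this order within all 7 libraries. Over libraries, however, the ranges overlapped between H2-D1 and H2-K1 and between all neighbours from Psmb10 to Tap1. The order of those pairs thus held within each library but not between different libraries. The whole pathway was thus detected in the bulk RNA of the sorted cells on both sides of the graft border.

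The main question is whether these transcripts differ between microglia inside and outside the graft. The heavy chains, B2m, Tap1, Nlrc5 and Psmb9 had higher mean levels inside the graft, at fitted log2 fold changes of 0.44 to 0.96, while Tap2, Tapbp, Psmb8 and Psmb10 had values nearer 0. None passed the test across all genes. With limma's voomWithQualityWeights, the test of the study, 0 of 10 genes had an adjusted P below 0.05 or 0.01, where 0.492% (0.433% higher and 0.0590% lower inside the graft) and 0.0197% of the 15257 genes passed. With edgeR's quasi-likelihood test it was also 0 of 10 at both thresholds, where 0.0983% and 0.00% of all genes passed.

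At an unadjusted P below 0.05, 6 of the 10 were higher inside the graft in each test, against 7.47% of all genes by voomWithQualityWeights and 5.76% by edgeR. In the gene lists below, unadjusted counts take both directions, for which voomWithQualityWeights gave 1140 of the 15257 genes higher and 718 lower. For edgeR only the share that was higher, 5.76%, is available beside those counts. The DESeq2 Wald test, which called 2.75% of all genes (2.10% higher and 0.655% lower), gave adjusted P below 0.05 for 3 of the 10, namely H2-K1, H2-D1 and Tap1. At 0.01 it called 1.52% of all genes (1.21% higher and 0.308% lower) and only H2-D1 of the 10. Altogether 9 of 10 log2 fold changes were above 0, against 48.3% of all genes, and their median was 0.50 against -0.013 for all genes tested (0.52 against -0.0064 with edgeR).

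**Figure D1:**
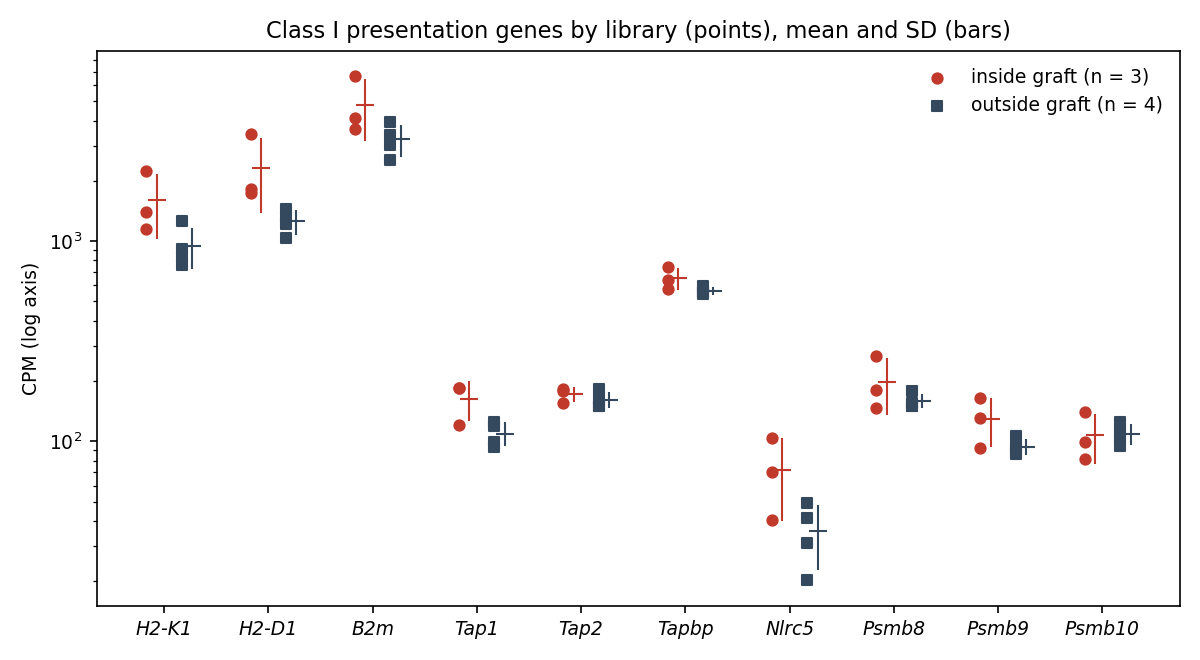
CPM of the 10 genes on a log axis, with a point for each library (3 inside the graft, 4 outside it) and a bar for the mean and SD of the group. H2-D1 is the gene whose libraries do not overlap between groups, and B2m has the highest levels, 2551 to 6675 CPM.

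H2-K1, a classical heavy chain, was measured at 1154, 2247 and 1400.4 CPM in inside graft 1 to 3 and at 1257, 911, 764 and 833 CPM in outside graft 1 to 4. Outside graft 1 lay above inside graft 1, so the groups overlapped. The means were 1600.5 ± 573 (SD, n = 3) and 941 ± 219 CPM (n = 4), with a log2 fold change of 0.83 (95% interval 0.40 to 1.26, adjusted P = 0.0906 by voomWithQualityWeights, and 0.77, adjusted P = 0.254, by edgeR).

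H2-D1, the other classical heavy chain, was at 1737, 3409 and 1819 CPM inside the graft and at 1453, 1216, 1033 and 1315 CPM outside it. Every inside library was above every outside library, which held for 1 of the 10 genes and for 5.65% of all genes tested, while the reverse order held for 0 of the 10 and 5.02% of all genes. The log2 fold change was 0.87 (0.43 to 1.31, adjusted P = 0.0840 by voomWithQualityWeights, and 0.89, adjusted P = 0.150, by edgeR). DESeq2 gave 0.90 with an adjusted P of 0.00249.

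B2m, the light chain common to all class I molecules, was at 4108, 6675 and 3621 CPM inside the graft and at 3921, 3375, 2551 and 3029 CPM outside it. Inside graft 2 stood above all other libraries, and inside graft 3 was below outside graft 1. The log2 fold change was 0.64 (0.24 to 1.04, adjusted P = 0.156 by voomWithQualityWeights, and 0.58, adjusted P = 0.358, by edgeR).

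Class I genes resemble one another, and a read that matched more than 1 place in the genome was left out of the counts. Of all 75-base stretches in its annotated transcripts, H2-K1 shared 3.10% exactly with other genes and H2-D1 shared 5.56%, and B2m shared 0. The shares reached 40.0% in H2-T22 and 36.0% in H2-T10, whose levels are therefore uncertain. Counts were also summed over the 19 class I heavy chain genes in the table, which gave 3514, 6923 and 4055 CPM inside the graft and 3343, 2668, 2255 and 2645 CPM outside it. The inside libraries were again all above the outside ones, with a log2 fold change of 0.84 (0.42 to 1.26, adjusted P = 0.0810 by voomWithQualityWeights, and 0.82, adjusted P = 0.169, by edgeR). H2-K1 and H2-D1 made up 79.4% to 82.3% of the sum in every library.

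The nonclassical class I genes, many of which present to innate receptors, were measured for 14 of the 23 listed. Of the 14, 0 passed 0.05 in voomWithQualityWeights or edgeR, and 6 had an unadjusted P below 0.05 in each of these tests. DESeq2 called 3 of the 14, against 2.75% of all genes tested. Log2 fold changes were above 0 in 12 of the 14, with a median of 0.59. The most abundant was H2-T23, which encodes Qa-1, a ligand of the CD94/NKG2A receptor. It stood at 427 ± 142 CPM inside and 261 ± 37.6 CPM outside the graft (log2 fold change 0.73, 0.34 to 1.13, adjusted P = 0.100), and all inside libraries were above all outside ones. Fcgrt, the neonatal Fc receptor, was at 142 ± 20.8 and 154 ± 2.51 CPM (-0.14, -0.39 to 0.11, adjusted P = 0.700).

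**Figure D2:**
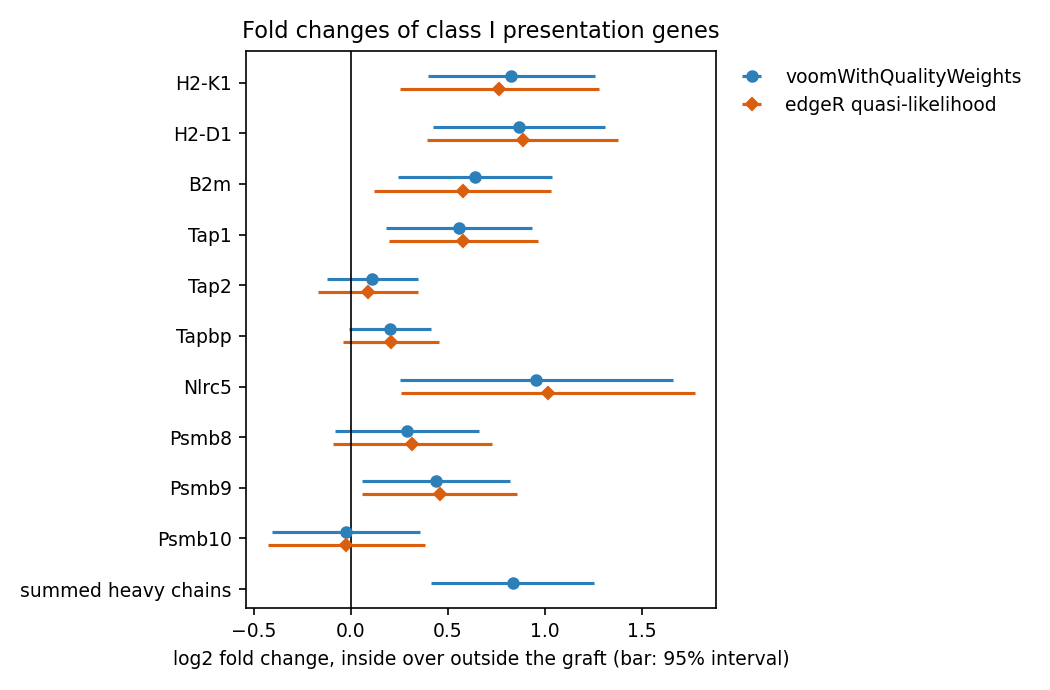
Log2 fold change of each gene, inside over outside the graft, with its 95% interval from voomWithQualityWeights (circles) and edgeR (diamonds), and of the summed heavy chains from voomWithQualityWeights. The intervals of H2-K1, H2-D1, B2m, Tap1, Nlrc5 and Psmb9 lie above 0 before adjustment, and those of Tap2, Tapbp, Psmb8 and Psmb10 include 0.

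Among the transport genes, Tap1 was at 121, 185 and 185 CPM inside the graft and at 125, 99.5, 93.5 and 120 CPM outside it. Inside graft 2 and 3 lay above all others, and inside graft 1 lay within the outside range. Its log2 fold change was 0.56 (0.18 to 0.93, adjusted P = 0.190 by voomWithQualityWeights, and 0.58, adjusted P = 0.249, by edgeR).

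Tap2, the other subunit of the same transporter, was at 156, 182 and 178 CPM inside and at 183, 150, 150 and 163 CPM outside the graft, with the groups fully interspersed. Its log2 fold change of 0.11 had a 95% interval of -0.12 to 0.35 (adjusted P = 0.753), which leaves out a change of 1 log2 unit in either direction. The ratio of Tap1 to Tap2 per kb within a library was 0.534, 0.703 and 0.719 inside the graft and 0.471, 0.458, 0.431 and 0.506 outside it.

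This ratio does not depend on how a library was scaled, although both genes have exon bases in common with neighbouring genes, and every inside value was above every outside value. The mean log2 ratio was 0.47 higher inside the graft, with an exact 2-sided permutation P of 0.0286, the smallest that 35 arrangements of 7 libraries can give, and 0.2 after Benjamini-Hochberg adjustment over the 7 ratios examined. The difference between these subunits therefore did not pass the correction.

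Tapbp, the peptide-loading factor, was at 574, 742 and 640 CPM inside and at 560, 598, 557 and 543 CPM outside the graft. Only outside graft 2 reached the range of the inside libraries. The log2 fold change was 0.20 (-0.01 to 0.41, adjusted P = 0.440 by voomWithQualityWeights, and 0.21, adjusted P = 0.612, by edgeR). Of the exact 75-base stretches of Tapbp, 18.6% were shared with overlapping or other annotated genes. Of 8 general partners in the endoplasmic reticulum, 0 passed in voomWithQualityWeights, edgeR or DESeq2, 0 had an unadjusted P below 0.05 in the first 2 of these, and their median log2 fold change was 0.049. The most abundant, the disulfide isomerase Pdia3, was at 1281 ± 174 and 1111 ± 64.4 CPM (0.18, -0.02 to 0.39, adjusted P = 0.489), and the chaperone Hspa5 was at 1200.0 ± 276 and 1111 ± 159 CPM (0.04, -0.27 to 0.35, adjusted P = 0.952).

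Nlrc5, the transactivator of class I genes, was at 40.5, 104 and 70.5 CPM inside the graft and at 49.5, 20.2, 41.2 and 31.1 CPM outside it. Inside graft 1 lay below outside graft 1 and 3, so the groups overlapped. The log2 fold change of 0.96 was the highest of the 10 in voomWithQualityWeights and edgeR, and its interval was also the widest (0.25 to 1.66, adjusted P = 0.242 by voomWithQualityWeights, and 1.02, adjusted P = 0.321, by edgeR).

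Of 16 other regulators that act at class I promoters or in interferon signalling, 0 passed in voomWithQualityWeights or edgeR. In these tests 3 and 2 had an unadjusted P below 0.05, and DESeq2 called 1 of the 16, against 2.75% of all genes tested. The median log2 fold change was 0.034. Irf8, a lineage factor of microglia, had the highest level, 794 ± 125 CPM in the inside libraries and 770 ± 35.4 CPM in the others (0.06, -0.17 to 0.28, adjusted P = 0.889). Rela, a subunit of nuclear factor kappa B, was at 173 ± 8.14 and 190 ± 12.9 CPM (-0.16, -0.37 to 0.05, adjusted P = 0.576). Of all genes tested, 5.65% had every inside library above every outside library and 5.02% the reverse. Stat2, part of the type I interferon factor ISGF3, is named here because it was the 1 gene of the 16 without such overlap between groups. That choice was made once its values were seen, and 1 of 16 is close to each of these shares. Stat2 was at 135 ± 46.9 and 78.7 ± 17.7 CPM (0.71, 0.22 to 1.20, adjusted P = 0.208 by voomWithQualityWeights). It was also the 1 gene of the 16 that DESeq2 called (adjusted P = 0.0412).

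Interferon receptors and their kinases gave 0 of 7 past 0.05 in voomWithQualityWeights, edgeR or DESeq2, and 1 with an unadjusted P below 0.05 in each of the first 2 tests. Log2 fold changes were above 0 in 3 of the 7. Ifngr1, the ligand-binding chain of the interferon gamma receptor, was at 959 ± 37.3 CPM in the graft and 1165 ± 82.3 CPM near it (-0.31, -0.49 to -0.13, adjusted P = 0.132). The highest inside library was below the lowest outside one. Jak1, a kinase shared by both receptor types, was at 306 ± 53.3 and 335 ± 49.1 CPM (-0.21, -0.52 to 0.10, adjusted P = 0.618). Ifnb1 and Ifng, which encode interferon beta and gamma, had too few counts to be tested.

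The 3 inducible proteasome subunits had log2 fold changes from -0.02 to 0.44. Psmb9 (β1i) was at 92.4, 164 and 131 CPM inside and at 107, 93.4, 89.8 and 86.3 CPM outside the graft. Inside graft 2 and 3 lay above all outside libraries and inside graft 1 lay among them. The log2 fold change was 0.44 (0.06 to 0.82, adjusted P = 0.324 by voomWithQualityWeights, and 0.46, adjusted P = 0.427, by edgeR).

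Psmb8 (β5i) was at 147, 268 and 179 CPM inside and at 178, 156, 151 and 151 CPM outside the graft, with inside graft 1 the lowest of all 7 libraries and inside graft 2 the highest. Its log2 fold change was 0.29 (-0.08 to 0.66, adjusted P = 0.556 by voomWithQualityWeights, and 0.32, adjusted P = 0.657, by edgeR). Psmb10 (β2i) was at 82.0, 140 and 99.2 CPM inside and at 112, 126, 94.6 and 102 CPM outside the graft, again with inside graft 1 lowest and inside graft 2 highest. Its log2 fold change was -0.02 (-0.40 to 0.36, adjusted P = 0.980 by voomWithQualityWeights, and -0.02, adjusted P = 0.987, by edgeR), and the sign turned when single libraries were left out. These intervals, like those of Tap1, Tap2, Tapbp and Psmb9, lay within 1 log2 unit of 0, which was so for 6 of the 10 genes and 58.1% of all genes tested.

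Each inducible subunit replaces a constitutive one, and their ratios per kb were compared within libraries. Psmb8 exceeded Psmb5 in all 7 libraries, 1.91, 2.44 and 2.76 times inside the graft and 2.32, 1.23, 1.94 and 1.73 times outside it. The difference of 0.41 log2 units had an exact 2-sided permutation P of 0.171 (adjusted 0.4). Psmb9 stayed below Psmb6, at ratios of 0.427, 0.562 and 0.559 inside and 0.546, 0.299, 0.475 and 0.408 outside the graft (difference 0.28 log2 units, exact permutation P = 0.314, adjusted 0.44).

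Psmb10 exceeded Psmb7 by 4.38, 7.06 and 5.20 times inside and 4.28, 5.66, 4.76 and 4.85 times outside the graft (difference 0.16 log2 units, exact permutation P = 0.514, adjusted 0.6). Thus 2 of the 3 inducible subunits were the more abundant partner per kb on both sides of the border. None of the 3 ratios separated the groups. Without division by length, Psmb9 and Psmb6 averaged 129 and 127 CPM inside the graft and 94.0 and 116 CPM outside it. In such means Psmb8 and Psmb10 still exceeded Psmb5 and Psmb7. Whether Psmb9 lay below Psmb6 inside the graft therefore depends on the annotated lengths. The constitutive genes Psmb5, Psmb6 and Psmb7 gave 0 of 3 past 0.05 in voomWithQualityWeights, edgeR or DESeq2 and 0 at an unadjusted P below 0.05 in the first 2 tests, with a median log2 fold change of -0.12. Of 10 proteasome activators and assembly factors, 0 passed in these 3 tests, 1 had an unadjusted P below 0.05 in voomWithQualityWeights and in edgeR, and 5 log2 fold changes were above 0. Psme1, a subunit of the interferon-inducible PA28 activator, was at 207 ± 47.0 and 188 ± 29.5 CPM (0.20, -0.15 to 0.55, adjusted P = 0.690), and Pomp, which helps assemble the proteasome, was at 195 ± 39.5 and 176 ± 23.2 CPM (0.16, -0.15 to 0.48, adjusted P = 0.738).

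The remaining ratios concern partners within the class I complex. H2-D1 relative to B2m per kb was 0.141, 0.170 and 0.168 inside and 0.124, 0.120, 0.135 and 0.145 outside the graft, with inside graft 1 just below outside graft 4 (difference 0.28 log2 units, exact permutation P = 0.0857, adjusted 0.3). H2-K1 relative to B2m differed by 0.19 (exact permutation P = 0.229, adjusted 0.4). H2-K1 relative to H2-D1 differed by -0.09 (exact permutation P = 0.6, adjusted 0.6) and ran from 0.556 to 0.760 over the 7 libraries, so H2-K1 was below H2-D1 in each of them.

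**Figure D3:**
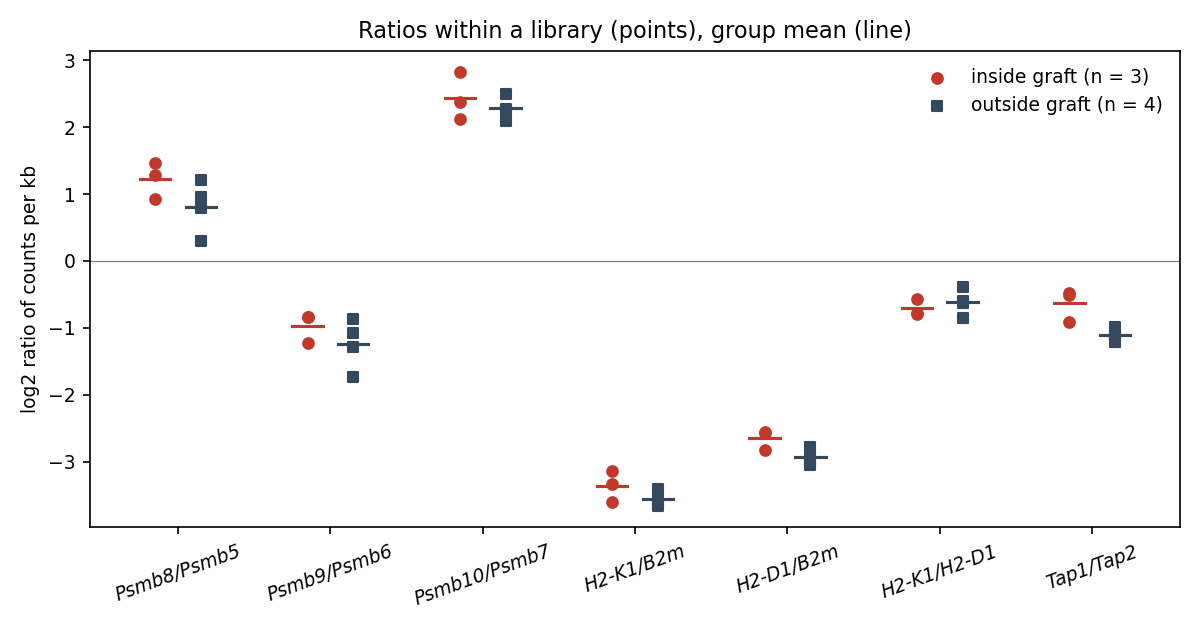
Log2 ratio of counts per kb between partner genes within a library, with a point for each library (3 inside the graft, 4 outside it) and a line at the group mean. The inside and outside libraries are apart in the Tap1 to Tap2 ratio and overlap in the other 6.

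The libraries inside the graft differed from each other in a repeated order. Inside graft 2 had the highest value of the 3 inside libraries in 9 of the 10 genes, against 34.8% of all genes tested, and the highest of all 7 libraries in 8 of the 10, against 15.2%. Tap1, where inside graft 3 was higher by under 1 CPM, and Tap2, where outside graft 1 was highest, were the exceptions. Inside graft 1 was the lowest of the 3 in 9 of 10 (32.2% of all genes), B2m excepted. Outside graft 1 was the highest of the 4 outside libraries in 8 of 10 (31.0% of all genes). The 10 genes together took 0.808%, 1.34% and 0.850% of the counts inside the graft and 0.798%, 0.682%, 0.562% and 0.640% outside it.

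Without inside graft 2 the median log2 fold change of the 10 genes was 0.32, and without inside graft 1 it was 0.71, by voomWithQualityWeights. With edgeR the median was 0.26 without inside graft 2. For Psmb8 the 2 values were 0.07 and 0.51 by voomWithQualityWeights, and for H2-K1 they were 0.57 and 1.06.

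**Figure D4:**
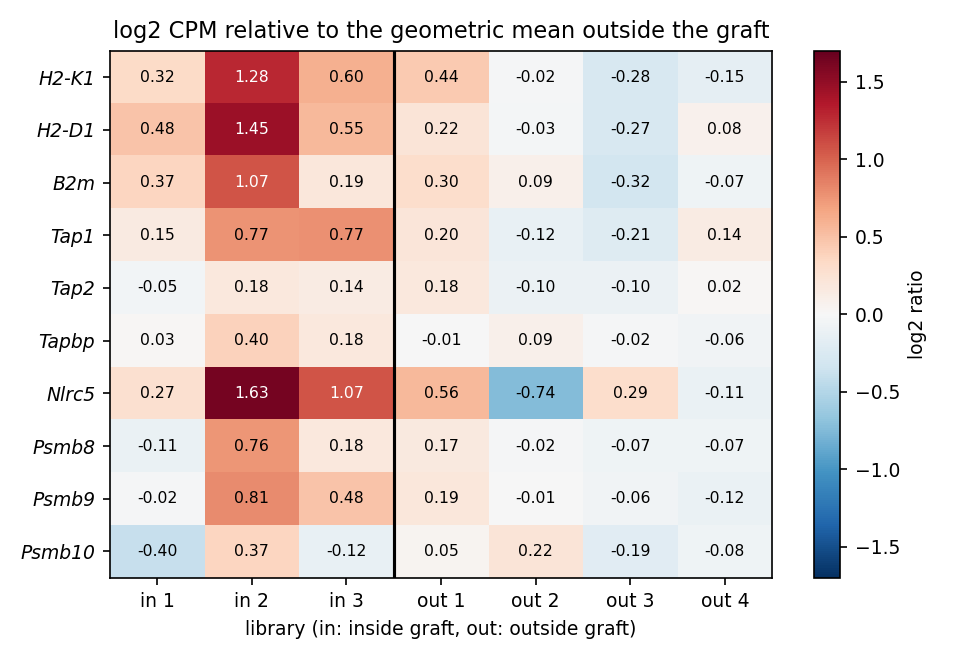
Log2 CPM of each gene in each library relative to the geometric mean of the 4 libraries outside the graft. Inside graft 2 carries the highest values of its group in all genes but Tap1, up to 1.63 in Nlrc5, and inside graft 1 lies between -0.40 and 0.48.

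Most of the 10 genes varied together over the 7 libraries, Psmb10 less so. Pearson's r of log2 CPM over the 45 pairs of genes ran from 0.21 to 0.96 with a median of 0.81, as a description, since all genes of a library share its depth and its mixture of cells. In 40 of the 45 pairs r was above 0.5, and every pair below 0.5 included Psmb10, the lowest being Psmb10 with Nlrc5. The genes outside the group whose pattern was most like its mean, among 8907 genes with a mean of at least 10 CPM, were Ly6e (r = 0.991, n = 7 libraries), Ccl12 (0.983), H2-T23 (0.974), Dtnbp1 (0.969) and 2410006H16Rik (0.967). Ccl12, a chemokine, was at 77.2, 266 and 132 CPM inside the graft and between 58.4 and 80.2 CPM outside it (log2 fold change 1.12, adjusted P = 0.168). Ly6e, an interferon-inducible surface protein, was at 1609, 2416 and 1850.2 CPM inside and between 1481 and 1816 CPM outside the graft (0.27, adjusted P = 0.398).

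Other gene groups were set beside these values. Of 14 interferon-stimulated genes, all 14 had a log2 fold change above 0, with a median of 1.02. By voomWithQualityWeights, 1 of the 14 passed 0.05, against 0.492% of all genes tested. That gene, the antiviral membrane protein Ifitm3, rose from 34.1 ± 12.1 to 114 ± 39.2 CPM inside the graft (1.82, 1.17 to 2.48, adjusted P = 0.0374). With edgeR 0 of 14 were called (Ifitm3 adjusted P = 0.0682), with 11 at an unadjusted P below 0.05, while DESeq2 called 6, against 2.75% of all genes tested. Their summed level was 720, 1298 and 886 CPM inside and 593, 400, 346 and 554 CPM outside the graft, with the libraries inside the graft in the same order as for H2-K1.

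Class II genes, which present extracellular antigen, differed more. By voomWithQualityWeights, 4 of 8 passed 0.05, all higher inside the graft (0.433% of all genes tested were), and all 8 were above 0, with a median log2 fold change of 3.08. Without outside graft 3 or outside graft 4 this test called only 1 of all genes, so at most 1 of these 4 could still pass. The invariant chain Cd74 rose by 3.19 (2.05 to 4.32, adjusted P = 0.0374), with 2543 ± 1504 against 260 ± 146 CPM. H2-Aa, H2-Eb1 and H2-Ab1, the chains of the class II molecules, rose by 3.58, 3.44 and 2.98. edgeR called 0 of 8, with all 8 at an unadjusted P below 0.05, while DESeq2 called 4, against 2.75% of all genes tested. The summed level was 1914, 6742 and 6073 CPM inside and 1111, 558, 906 and 676 CPM outside the graft, where inside graft 3 stood close to inside graft 2.

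Markers of blood-derived cells are given by their sums and counts. Summed over 5 neutrophil markers, led by S100a8, the level was 4466, 466 and 9688 CPM inside the graft and 0.640, 0.311, 195 and 18.1 CPM outside it. Summed over 9 monocyte markers, led by Chil3, it was 669, 96.0 and 1384 CPM inside and 17.9 to 39.3 CPM outside the graft. Of these, 0 of 5 and 0 of 9 passed 0.05 in voomWithQualityWeights or edgeR. At an unadjusted P below 0.05 there were 4 and 2 in voomWithQualityWeights and 4 and 5 in edgeR. DESeq2 called 2 and 1, against 2.75% of all genes tested. For both sums all inside libraries were above all outside libraries, and inside graft 2, which was highest for most class I genes, was the lowest of the 3. Most of the monocyte sum inside the graft came from Chil3, at 614 ± 561 CPM, against 4.09 ± 7.28 CPM outside it. Among the 9 monocyte markers, only Chil3 and Ly6c2 separated the groups, and the rest overlapped. The separation seen in the monocyte sum therefore does not describe most of its genes.

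The markers of border-associated macrophages summed to 396 to 654 CPM inside and 533 to 633 CPM outside the graft, mostly from Stab1 (477 ± 85.3 and 580 ± 43.2 CPM). Of the 8 tested, 7 had a log2 fold change above 0, with a median of 3.89, and 5 had a 95% interval wholly above 0. By voomWithQualityWeights and edgeR 0 of 8 passed 0.05, with 6 at an unadjusted P below 0.05 in each. DESeq2 called 2 of the 8, against 2.75% of all genes tested. Mrc1 was at 39.2 ± 27.9 and 9.10 ± 4.09 CPM, Ms4a7 at 12.3 ± 7.79 and 0.834 ± 1.12 CPM and Pf4 at 10.6 ± 7.87 and 0.418 ± 0.427 CPM. T and natural killer cell markers summed to 3.99 to 14.7 and 4.05 to 8.01 CPM, with 4 of 10 at 0 in every library, among them Cd3d and Trbc2. Proliferation markers summed to 71.2 to 108 CPM inside and 5.95 to 33.6 CPM outside the graft. By voomWithQualityWeights 2 of 5 passed 0.05, both higher inside the graft, against 0.433% of all genes tested. Top2a rose from 2.47 ± 4.70 to 27.9 ± 2.41 CPM (adjusted P = 0.0316) and Birc5 from 2.27 ± 1.88 to 11.6 ± 4.57 CPM (adjusted P = 0.0482). With edgeR 0 of 5 were called, with all 5 at an unadjusted P below 0.05. DESeq2 called 2 of the 5, Birc5 and Ccnb1, against 2.75% of all genes tested. Top2a was not among them (adjusted P = 0.401 by DESeq2 and 0.356 by edgeR), and its outside libraries ran from 0.0402 to 9.52 CPM. Endothelial markers summed to 19.2 to 25.7 and 28.1 to 47.0 CPM, and genes induced by tissue dissociation to 372 to 470 and 347 to 464 CPM. The part of these other cells in the class I values was not tested, and the order of the libraries is given as measured.

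**Figure D5:**
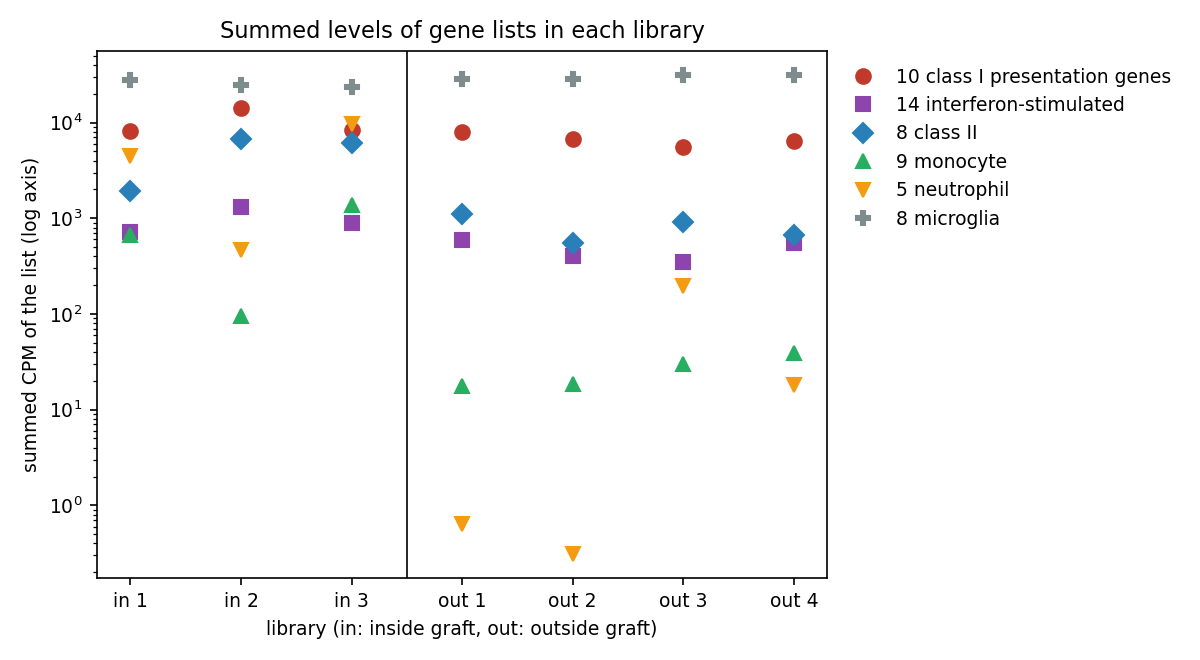
Summed CPM of the 10 class I presentation genes and of 5 other gene lists in each library, on a log axis, with inside libraries left of the line and outside libraries right of it. Inside graft 2 has the highest class I and interferon-stimulated sums and the lowest neutrophil sum of the inside libraries, 466 CPM.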

How the data were processed

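Bulk RNA-seq of sorted CD11b+CD45low cells was analysed for 3 inside-graft and 4 outside-graft libraries, grouped by the labels. The authors deposited raw counts per gene name. They aligned 75-cycle single reads with STAR 2.7.2a and counted them with featureCounts 1.6.2 on GENCODE M21, without regard to strand and without reads that aligned to several places, which lowers the counts of near-identical class I genes.

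From these counts, genes were filtered with filterByExpr by group and scaled by TMM (R 4.3.3, edgeR 4.0.16). CPM used the summed counts on tested genes as the library size. The groups were compared with limma 3.58.1 voomWithQualityWeights, edgeR's glmQLFTest and, as an alternative, DESeq2 1.42.0, with Benjamini-Hochberg adjustment over all 15257 genes and thresholds of 0.05 and, as in the study, 0.01. The 7 ratios used counts per kb with nothing added (0.5 counts added as an alternative) and exact 2-sided permutation tests. The scripts were tested on simulated data.

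The 10 genes and the lists were chosen with earlier results of these data known. A gene of the microglial markers is not reported here. In each other pathway list, the genes named were those past 0.05 in either test (at most 4) or, with none, the 2 most abundant, and Stat2 and the marker genes are named beyond this. Alternatives were other filters, scalings and weights, the replicate number as a block, and each library left out. Leaving out inside graft 2 and outside graft 1 together was added after seeing the data. Amplified reads are not independent molecules, so totals overstate the molecules sampled.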

Additional observations from a re-analysis of the deposited data

How the results depend on the processing

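Of the 10 genes, 9 kept the sign of their log2 fold change under all 16 alternatives of each test, the exception being Psmb10. Psmb10 turned to 0.17, 0.02 and 0.05 without inside graft 1, inside graft 3 or outside graft 2 by voomWithQualityWeights, and to 0.14, 0.03 and 0.05 by edgeR. These lay within ranges of -0.22 to 0.17 and -0.26 to 0.14 with 1 library left out. With the replicate block Psmb10 turned to 0.022 by voomWithQualityWeights and stayed below 0 by edgeR (-0.074). The ratio of Psmb10 to Psmb7 turned to -0.029 without inside graft 2 (range -0.029 to 0.32 with 1 library left out). With voomWithQualityWeights the number of the 10 genes past 0.05 went from 0 to 2 (H2-K1 and H2-D1) with at least 10 counts in every library, and to 1 (H2-K1, adjusted P = 0.0480) without inside graft 2 and outside graft 1, and ran from 0 to 1 with 1 library left out (H2-K1 without inside graft 1, adjusted P = 0.0499). With edgeR it went from 0 to 3 (H2-K1, H2-D1 and Nlrc5) without a filter and to 3 with DESeq2, and the number past 0.01 went from 0 to 1 (H2-D1) in both. The cause was not tested. The same settings moved the number called among all genes, from 75 to 211 by voomWithQualityWeights with 10 counts and from 15 to 366 by edgeR without a filter.

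Replicate numbers are shared between the groups in the labels. Deviations of same-numbered libraries from their group means were correlated at r = -0.043, 0.090 and 0.067 over 15257 genes. With the replicate block, for which outside graft 4 has no partner, voomWithQualityWeights called 4 of the 10 genes at 0.05 (H2-K1, H2-D1, B2m and Tap1) and 1 at 0.01 (H2-D1), among 265 and 77 of all genes, and edgeR 0 at both. The block gave the summed heavy chains 0.95 (adjusted P = 0.0141) and the Tap1 to Tap2 ratio 0.51 (exact permutation P = 0.25, the smallest that 3 pairs can give). Inside graft 2 and 3 correlated best with the outside library of their own number, and inside graft 1 with outside graft 4 (r = 0.064). Over all pairs r ran only from -0.117 to 0.090, so these values do not decide whether equal numbers mark pairs.

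The summed heavy chains also passed 0.05 with voomWithQualityWeights at 0.84 with 10 counts in every library (adjusted P = 0.0264), at 0.60 without inside graft 2 and outside graft 1 (0.0473), and without inside graft 1 or inside graft 2, within a range of 0.56 to 1.05 with 1 library left out (0.0476 to 0.353), and with edgeR at 0.83 without a filter (0.0152). The Tap1 to Tap2 difference was 0.40 to 0.61 with 1 library left out, where no arrangement of 6 libraries can reach an exact permutation P of 0.05 (0.0667 to 0.1). The median of the 10 genes was 0.32 to 0.71 by voomWithQualityWeights and 0.26 to 0.67 by edgeR with 1 library left out. With 3 and 4 libraries whose spread is wide inside the graft, differences of the size of Tapbp or Psmb8 were not separated from 0, and for Psmb8 the 95% interval reached 0.66.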

Other observations

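None of the 18 values examined within the 4 libraries outside the graft stood apart from the others by Dixon's criterion at 95%, where chance alone would give 0.9, and groups of 3 cannot be examined in this way. The genes H2-Q6 and H2-Q7, nonclassical class I genes named here after their values were seen, were at 126 ± 66.3 and 84.5 ± 50.4 CPM (SD, n = 3) inside the graft and at 48.6 ± 13.6 and 25.1 ± 13.5 CPM (n = 4) outside it. Their log2 fold changes were 1.30 (0.60 to 1.99, adjusted P = 0.0999 by voomWithQualityWeights) and 1.79 (0.86 to 2.72, adjusted P = 0.0906), and 21.1% and 17% of their 75-base stretches were shared exactly with other genes. H2-M3, which presents N-formylated peptides and shared 0 such stretches, was at 142 ± 41.1 and 107 ± 15.9 CPM (0.45, 0.07 to 0.84, adjusted P = 0.312).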
